A study of Rattus norvegicus with 18 samples.

Results

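The translation initiation factor genes of rat were described in NRK-52E cells exposed to chlorothalonil. They were taken as all genes whose platform symbol begins with Eif followed by a digit: 75 probe sets carried 1 such symbol, 71 of them were kept, and the brightest kept probe set of each gene over the 18 arrays stood for it. All 49 member genes passed the filter, a log2 value above 4 in 3 or more arrays, among 9149 genes tested. Their mean log2 values over 18 arrays lay between 8.704 and 14.47, so none was near that limit. Another 2 Eif genes, Eif5 and Eif3e, had probe sets only with several symbols and were not tested.

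NRK-52E is an established line from the kidney of an Osborne-Mendel rat, labelled as proximal tubule epithelium, and chlorothalonil is a chlorinated nitrile fungicide that reacts with thiol groups. Chlorothalonil-treated groups at 6, 24 and 72 h received 1.1 µM in 0.1% DMSO, a concentration that the labels give as the IC10 at 72 h. The DMSO groups at 6, 24 and 72 h received 0.1% DMSO only. All cells were grown to confluence before exposure, and each of the 6 groups held 3 arrays labelled as biological replicates of 1 cell line. The labels do not say that replicates came from separate cultures, so p-values measure the spread between these arrays. Total RNA was hybridised to an Affymetrix array, and all levels below are log2 values. Array data of this kind cannot tell fewer cells expressing a gene from less RNA per cell.

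Initiation factors load the small ribosomal subunit with the initiator methionyl-tRNA, bring it to the capped end of an mRNA and place it on the start codon, where the large subunit joins. Control falls mainly on the tRNA-carrying factor eIF2, which stress kinases phosphorylate so that its exchange factor eIF2B is blocked, and on the cap-binding protein eIF4E, which the 4E-binding proteins (4E-BPs) hold in check until the kinase mTOR phosphorylates them. In kidney epithelium and other cells, translation of most mRNAs falls during such stress while that of a few, such as Atf4, is favoured.

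Arrays of one group correlated at r = 0.992 to 0.998 over the 9149 genes tested, and array medians over all probe sets lay between 3.934 and 4.222. Of the 13 proximal tubule markers on the array, 11 were above log2 4 on no array and 0 on all arrays, so the labelled cell type was not borne out by these markers. Of the 9 epithelial markers 3 (Krt8, Tjp1 and Ocln), of the 8 fibroblast markers 2 (Col1a1 and Col3a1) and of the 3 podocyte markers 1 (Wt1) were above log2 4 on all 18 arrays. For endothelium, leukocytes and distal nephron that count was 0 of 4, 0 of 4 and 0 of 5 markers, and the part of other cell types in the results was not tested. The 12 probe sets for the spiked bacterial poly-A controls were brighter in treated than in DMSO arrays, by 0.597 at 6 h, 1.06 at 24 h and 0.657 at 72 h on the log2 scale. With arrays scaled to hold those controls level, the median change of all genes tested moved to -0.607, -1 and -0.58 at the 3 times, against -0.0097, 0.057 and 0.074 on the deposited scale. The actin probe sets' 3′ minus 5′ log2 difference, a sign of RNA quality, lay between 0.895 and 0.949 in treated arrays and 0.926 and 1.12 in DMSO arrays at 6 h, 1.03 and 1.16 in treated arrays and 1.23 and 1.32 in DMSO arrays at 24 h, and 1.66 and 1.81 in treated arrays and 1.51 and 2.02 in DMSO arrays at 72 h. Changes are given relative to each array's own distribution, with the value on the poly-A scale beside each group of genes. DMSO 24 h replicate 1 had dimmer controls than its group, and without it the 24 h median of all genes tested on the poly-A scale was -0.573. Poly-A values at 24 h below include that array unless stated. The part of the difference in controls in the results was not tested.

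On the deposited scale, initiation factor genes were more often called higher than lower in chlorothalonil-treated cells at all 3 times. The order of these counts turned on the poly-A scale. At 6 h, 24 of the 49 genes rose and 11 fell, while 59.6% of all genes tested were called (27.8% higher and 31.8% lower). At 24 h, 34 rose and 7 fell, against a background of 70.1% called (39.1% higher and 31.1% lower). At 72 h, 33 rose and 5 fell, with 64.3% of all genes called (37.2% higher and 27% lower). The higher calls thus came to 49% of the members at 6 h, 69.4% at 24 h and 67.3% at 72 h, each above the background's share of higher calls, while the lower calls stayed below it. Without chlorothalonil 72 h replicate 1 the 72 h count of lower genes was 3. All 3 treated arrays lay above all 3 DMSO arrays in 26, 35 and 34 members at 6, 24 and 72 h, against 32.1%, 40.4% and 40.1% of all genes tested. They lay below in 11, 7 and 5 members, against 34.7%, 32.5% and 30.5% of all genes.

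The members' median log2 change was 0.18 at 6 h, 0.50 at 24 h and 0.38 at 72 h on the deposited scale. On the poly-A scale it was -0.417, -0.563 and -0.276, where the direction turned. Without DMSO 24 h replicate 1 the 24 h median on that scale was -0.113. On the deposited scale the members' median lay above the all-gene median at each time. The poly-A scale shifts all genes of an array by the same amount, so it keeps that gap by construction and is no second test of it. Genes called with a change of 2-fold or more numbered 0, 10 and 5 of the 49 (0%, 20.4% and 10.2%) at 6, 24 and 72 h, beside 11.5%, 18.7% and 12.2% of all genes tested. On the poly-A scale 0, 1 and 1 genes were called higher at the 3 times (Eif1ad at 24 h and Eif4b at 72 h). There 11, 19 and 5 were called lower, and without DMSO 24 h replicate 1 the 24 h counts were 5 higher and 14 lower. All genes tested shifted down on that scale too (medians -0.607, -1 and -0.58). The share of all genes called there is not given, so whether these counts are particular to the members is not known. A test over the 3 times together called 47 of the 49 genes, with 91.3% of all genes called, and the exceptions were Eif2s3y and Eif3a.

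Of the 49 genes, 19 were called higher at all 3 times: Eif1ad, Eif2s1, Eif2s2, Eif2d, Eif2b2, Eif2b3, Eif2b5, Eif3b, Eif3d, Eif3h, Eif3i, Eif3j, Eif4a2, Eif4a3, Eif4e, Eif4e2, Eif4ebp1, Eif5a and Eif6. That is 38.8% of the members, beside 10.1% of all genes tested. The 3 genes called lower at all 3 times were Eif4ebp2, Eif4ebp3 and Eif4g3 (6.12%, beside 7.4% of all genes). Another 7 rose at 24 and 72 h without passing the test at 6 h: Eif2a, Eif2b1, Eif2b4, Eif2s3, Eif3c, Eif3l and Eif4h (14.3%, beside 8.53% of all genes). The 3 comparisons have no arrays in common.

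**Figure D1:**
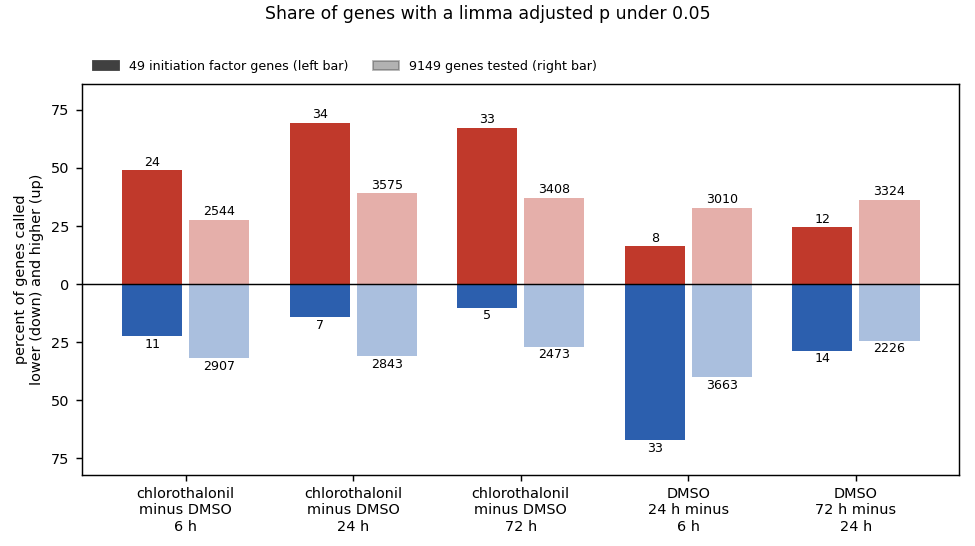
Percent of genes called higher (up) and lower (down) in 5 comparisons, with the 49 initiation factor genes in the left bars and all 9149 genes tested in the right bars; numbers give the genes called. With treatment the members' higher bars (24, 34 and 33 genes at 6, 24 and 72 h) exceed those of all genes. In DMSO at 24 h against 6 h their lower bar (33 genes) exceeds that of all genes. On the poly-A scale the treatment counts are 0, 1 and 1 higher, with no all-gene share given.

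**Figure D2:**
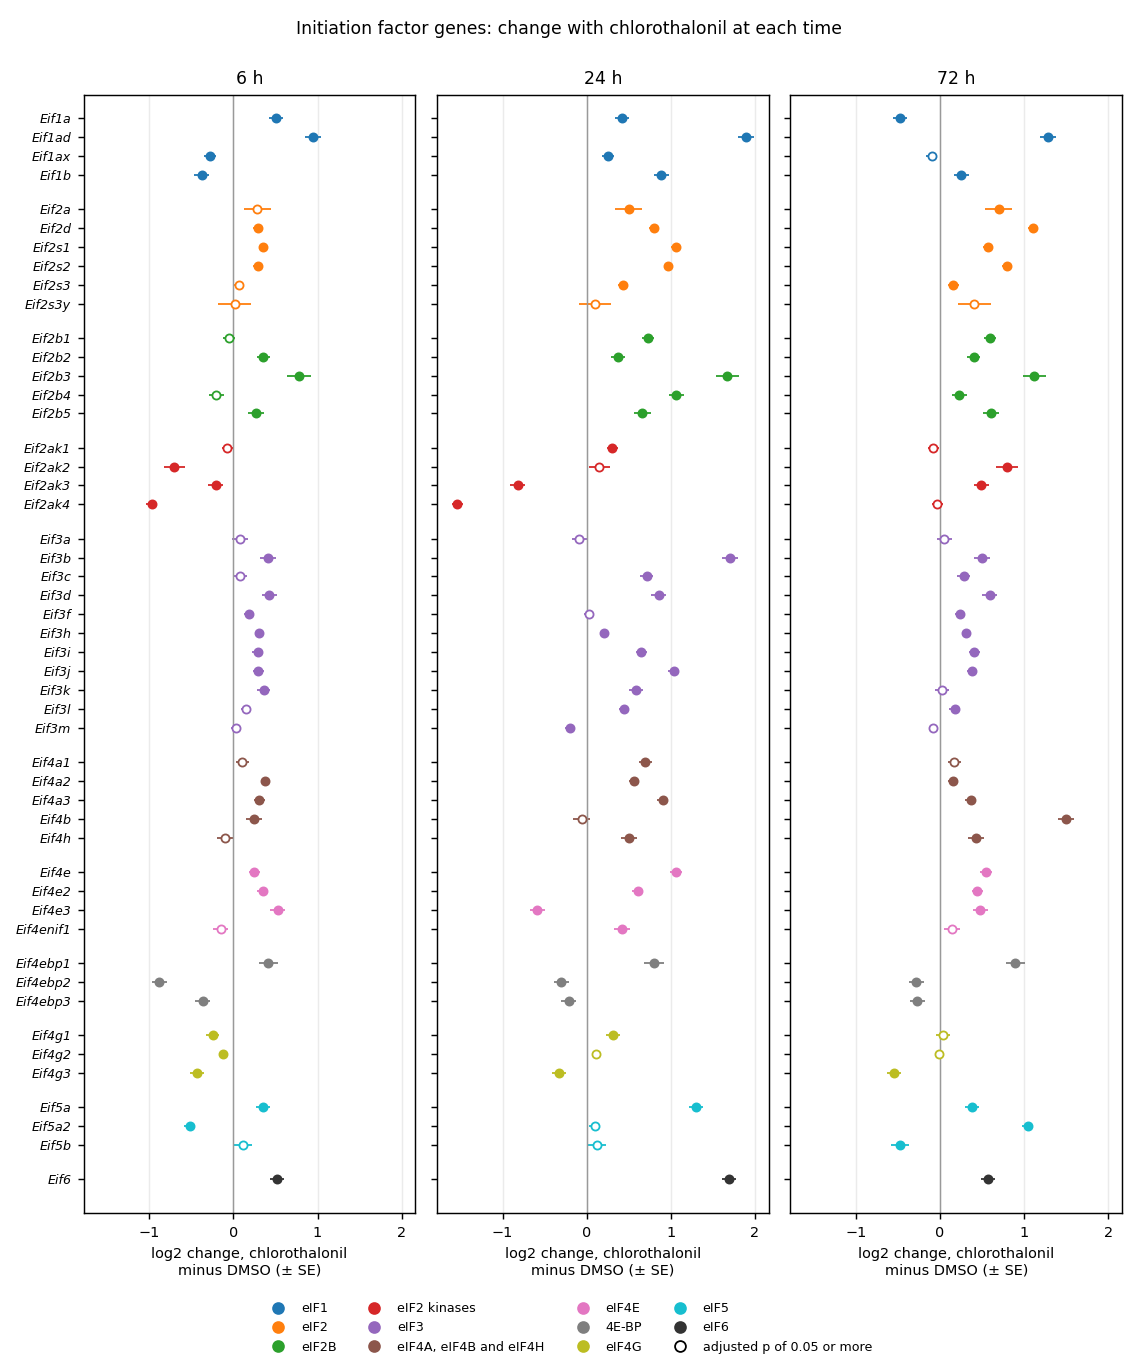
Log2 change with its standard error (x axis, chlorothalonil minus DMSO, 3 arrays a group) for each of the 49 genes, coloured by subgroup, at 6, 24 and 72 h; open points had an adjusted p of 0.05 or more. Most points lie right of 0 at 24 h on the deposited scale, with Eif1ad at 1.89, while Eif2ak4 lies at -1.54. On the poly-A scale the median of the 49 genes at 24 h is -0.563, or -0.113 without DMSO 24 h replicate 1.

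The promoters of these genes were read for motifs of factors that respond to growth signals and stress. A RefSeq promoter (GRCr8, 250 bases before to 50 after the start) was found by symbol for 45 of the 49 genes, 3 of which had several entries, the first being used; Eif3h, Eif4b, Eif4e3 and Eif4ebp1 had no entry in the table. The E-box CACGTG, the site of the Myc family, occurred in 9 of the 45 (20%), namely Eif1b, Eif3a, Eif3b, Eif3f, Eif4e, Eif4g1, Eif4h, Eif5a and Eif5a2. It occurred in 6.65% of the 27457 promoters of the table and in 10.2% of the 7746 of genes tested here. The antioxidant element TGACNNNGC occurred in 9 of the 45 (20%, against 12.2% of all promoters and 14.7% of those of genes tested), the heat shock element GAANNTTC in 3 (6.67%, against 8.34% and 5.54%) and the element TGATGNAAN of C/EBP and ATF dimers in 1 (2.22%, against 3.8% and 1.92%). The site TGACGTCA of ATF and CREB factors occurred in 0 of the 45, against 1.91% of all promoters and 3.51% of those of genes tested. Both strands were searched, and a match is a description of letters only. The median log2 change at 24 h was 0.50 for genes with the E-box and 0.53 for those without it. Within the E-box group the change at 24 h ran between -0.09 for Eif3a and 1.71 for Eif3b.

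The promoters of 6 genes are printed 5′ to 3′ on the strand of the gene, with the motif matches in capitals. Eif3b (minus strand, chr12:19334719-19335018), Eif5a (minus strand, chr10:55143172-55143471) and Eif4e (plus strand, chr2:229740503-229740802) are shown as the E-box genes with the highest changes at 24 h. Eif4g1 (minus strand, chr11:93746318-93746617) and Eif5a2 (plus strand, chr2:113657584-113657883) are E-box genes whose brightest probe set had a small change at that time. The other kept probe set of Eif5a2 changed by -1.14 at 24 h, so a small change for that gene is uncertain. Eif1ad (plus strand, chr1:212103465-212103764) had the highest change of all members at 24 h, and its capitals mark a heat shock element in place of an E-box. In Eif5a and Eif5a2 the capitals also take in an antioxidant element that overlaps or adjoins the E-box.
Eif3b: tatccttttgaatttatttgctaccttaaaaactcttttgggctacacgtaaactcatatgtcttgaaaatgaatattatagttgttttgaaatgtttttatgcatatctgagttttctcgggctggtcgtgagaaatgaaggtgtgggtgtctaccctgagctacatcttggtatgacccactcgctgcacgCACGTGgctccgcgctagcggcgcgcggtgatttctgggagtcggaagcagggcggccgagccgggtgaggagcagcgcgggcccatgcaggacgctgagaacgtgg
Eif5a: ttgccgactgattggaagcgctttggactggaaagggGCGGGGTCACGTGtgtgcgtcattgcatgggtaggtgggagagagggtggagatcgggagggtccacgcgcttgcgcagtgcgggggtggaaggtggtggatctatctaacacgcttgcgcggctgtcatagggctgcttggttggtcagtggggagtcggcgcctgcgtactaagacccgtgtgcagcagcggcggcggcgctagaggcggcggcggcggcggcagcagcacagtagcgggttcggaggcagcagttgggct
Eif4e: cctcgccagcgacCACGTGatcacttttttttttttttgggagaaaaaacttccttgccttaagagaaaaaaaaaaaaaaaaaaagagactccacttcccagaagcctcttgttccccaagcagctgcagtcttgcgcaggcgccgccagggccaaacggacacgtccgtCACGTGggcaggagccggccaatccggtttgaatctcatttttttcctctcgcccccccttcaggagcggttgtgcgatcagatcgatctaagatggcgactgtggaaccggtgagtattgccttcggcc
Eif4g1: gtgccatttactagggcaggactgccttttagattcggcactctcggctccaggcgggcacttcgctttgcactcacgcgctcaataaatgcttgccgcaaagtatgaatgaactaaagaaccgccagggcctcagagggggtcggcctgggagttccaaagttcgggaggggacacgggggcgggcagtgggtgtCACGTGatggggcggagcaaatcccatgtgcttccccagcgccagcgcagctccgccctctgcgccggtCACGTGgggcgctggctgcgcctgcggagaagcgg
Eif5a2: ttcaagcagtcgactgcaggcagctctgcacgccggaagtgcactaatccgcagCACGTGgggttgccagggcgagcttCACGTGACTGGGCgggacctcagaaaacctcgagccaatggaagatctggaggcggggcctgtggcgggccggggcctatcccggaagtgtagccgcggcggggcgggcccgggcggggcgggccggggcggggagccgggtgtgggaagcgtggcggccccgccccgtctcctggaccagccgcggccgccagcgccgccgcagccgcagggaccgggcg
Eif1ad: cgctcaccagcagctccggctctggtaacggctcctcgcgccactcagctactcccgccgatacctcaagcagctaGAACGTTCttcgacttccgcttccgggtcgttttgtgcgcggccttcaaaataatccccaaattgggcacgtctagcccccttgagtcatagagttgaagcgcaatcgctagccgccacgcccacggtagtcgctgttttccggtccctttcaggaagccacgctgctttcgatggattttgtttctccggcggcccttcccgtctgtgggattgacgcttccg

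Beside the subgroup counts below, 27.8%, 39.1% and 37.2% of all genes tested were called higher at 6, 24 and 72 h. Shares called lower were 31.8%, 31.1% and 27%. The eIF1 group held Eif1a, Eif1ad, Eif1ax and Eif1b, and Eif1 itself was not among the members. All 4 genes rose at 24 h. Their median log2 change was 0.653 on the deposited scale and -0.407 on the poly-A scale. At 6 h 2 rose and 2 fell (median 0.117, -0.48 on the poly-A scale), and at 72 h 2 rose and 1 fell (median 0.076, -0.578 on the poly-A scale). Eif1ad encodes a protein with an eIF1A-like domain that acts in maturation of the small subunit. It had log2 values of 10.29, 10.31 and 10.24 in treated arrays at 24 h, against 8.38, 8.65 and 8.15 in DMSO arrays. All 3 treated arrays lay above all 3 DMSO arrays, a 3.70-fold higher level (log2 change 1.89, SE 0.095, adjusted p = 2.35e-10). At 6 h its values were 10.82, 10.87 and 10.86 in treated arrays, against 9.98, 9.87 and 9.87 in DMSO arrays, and at 72 h they were 9.45, 9.40 and 9.41 in treated arrays, against 8.15, 8.24 and 8.01 in DMSO arrays. The groups did not overlap at either time (log2 change 0.94, SE 0.095, adjusted p = 7.47e-07 at 6 h; log2 change 1.29, SE 0.095, adjusted p = 2.25e-08 at 72 h).

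Eif1b, a paralogue of the start-codon guardian eIF1, had 11.12, 11.26 and 11.20 in treated arrays at 6 h, against 11.70, 11.41 and 11.60 in DMSO arrays. At 24 h the values were 11.60, 11.51 and 11.41 in treated arrays, against 10.48, 10.76 and 10.60 in DMSO arrays, and at 72 h they were 11.03, 11.19 and 11.13 in treated arrays, against 10.79, 10.94 and 10.87 in DMSO arrays. Treated arrays were thus lower at 6 h (log2 change -0.38, SE 0.088, adjusted p = 0.00167) and higher at 24 h (log2 change 0.89, SE 0.088, adjusted p = 2.96e-07). The 72 h call (log2 change 0.25, SE 0.088, adjusted p = 0.0197) was lost without either of 2 arrays. The adjusted p was 0.0752 without chlorothalonil 72 h replicate 2 and 0.0751 without DMSO 72 h replicate 1.

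Eif1a, one of 2 genes here for the scanning factor eIF1A, had 10.70, 10.80 and 10.84 in treated arrays at 72 h, against 11.19, 11.20 and 11.37 in DMSO arrays, and the treated arrays were the lower (log2 change -0.47, SE 0.083, adjusted p = 0.000144). Its 6 h values were 12.21, 12.05 and 12.02 in treated arrays, against 11.52, 11.54 and 11.69 in DMSO arrays, and at 24 h 11.63, 11.44 and 11.55 in treated arrays, against 11.00, 11.25 and 11.10 in DMSO arrays. The treated arrays were the higher at both earlier times (log2 change 0.51, SE 0.083, adjusted p = 8.12e-05 at 6 h; log2 change 0.42, SE 0.083, adjusted p = 0.000342 at 24 h). Eif1ax, the X-linked gene for the same factor, fell at 6 h (log2 change -0.28, SE 0.067, adjusted p = 0.00235), rose at 24 h (log2 change 0.25, SE 0.067, adjusted p = 0.00353) and did not pass the test at 72 h (log2 change -0.10, SE 0.067, adjusted p = 0.202).

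The eIF2 group, which carries the initiator tRNA, had 3, 5 and 5 of 6 genes higher at 6, 24 and 72 h and 0 lower, with medians of 0.284, 0.648 and 0.631 on the deposited scale and -0.313, -0.412 and -0.0225 on the poly-A scale. Eif2s1 encodes the alpha subunit, whose phosphorylation is the switch of the stress response. Its log2 values were 13.82, 13.79 and 13.85 in treated arrays at 24 h, against 12.73, 12.83 and 12.74 in DMSO arrays. The 3 replicates of each group lay close together and far from the other group, a 2.08-fold higher level in treated cells (log2 change 1.06, SE 0.052, adjusted p = 1.72e-10). Values at 6 h were 13.93, 13.89 and 13.92 in treated arrays, against 13.54, 13.50 and 13.63 in DMSO arrays, and at 72 h 13.26, 13.26 and 13.21 in treated arrays, against 12.70, 12.72 and 12.62 in DMSO arrays, again without overlap (log2 change 0.35, SE 0.052, adjusted p = 3.12e-05 at 6 h; log2 change 0.56, SE 0.052, adjusted p = 2.22e-07 at 72 h). Eif2s2, the beta subunit, followed a like order, with log2 changes of 0.29, 0.97 and 0.80 at 6, 24 and 72 h, each called.

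Eif2s3, the GTP-binding gamma subunit, rose by 0.43 at 24 h (adjusted p = 1.99e-05) and by 0.16 at 72 h (adjusted p = 0.0397), a call that was lost without any 1 of 5 arrays (adjusted p 0.0504 to 0.143). Eif2s3y, its Y-linked copy, had 13.21, 12.73 and 12.89 in treated arrays at 72 h, against 12.63, 12.57 and 12.42 in DMSO arrays. It passed the test at no time, with log2 changes of 0.01, 0.10 and 0.41. The copies are near-identical and their probes may share signal, so the values of both are uncertain. Eif2d, which can deliver initiator tRNA outside the eIF2 route and acts in ribosome recycling, had 10.31, 10.35 and 10.35 in treated arrays at 72 h, against 9.25, 9.24 and 9.21 in DMSO arrays. All treated arrays lay above all DMSO arrays, a 2.15-fold higher level (log2 change 1.10, SE 0.056, adjusted p = 4.84e-10). Its change at 72 h was the largest of the eIF2 group, after 0.29 at 6 h and 0.80 at 24 h. Eif2a, a separate single-chain factor that can bring initiator tRNA to the ribosome, rose by 0.50 at 24 h (adjusted p = 0.0118), a call lost without chlorothalonil 24 h replicate 3 (adjusted p = 0.0567), and by 0.70 at 72 h (adjusted p = 0.00137).

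By brightest probe set, all 5 subunits of eIF2B, the exchange factor that reloads eIF2 with GTP, rose at 24 and 72 h. At 6 h 3 rose, with 0 lower at any time. The medians were 0.267, 0.729 and 0.596 on the deposited scale and -0.329, -0.331 and -0.0581 on the poly-A scale. Eif2b3, the gamma subunit, moved most. It had 9.94, 9.75 and 9.75 in treated arrays at 24 h, against 8.26, 8.38 and 7.80 in DMSO arrays. The treated arrays were 3.19-fold higher, with no overlap (log2 change 1.67, SE 0.14, adjusted p = 4.07e-08). At 6 h it had 10.39, 10.42 and 10.49 in treated arrays, against 9.66, 9.49 and 9.81 in DMSO arrays, and at 72 h 9.08, 9.35 and 9.26 in treated arrays, against 8.09, 8.31 and 7.92 in DMSO arrays. The groups were apart at both times (log2 change 0.78, SE 0.14, adjusted p = 0.000176 at 6 h; log2 change 1.12, SE 0.14, adjusted p = 4.69e-06 at 72 h). Eif2b4, the delta subunit, rose by 1.07 at 24 h (adjusted p = 5.53e-08) and by 0.23 at 72 h (adjusted p = 0.0391), a 72 h call lost without any 1 of 4 arrays (adjusted p 0.0851 to 0.145). Eif2b5, the catalytic epsilon subunit, had 9.99, 10.06 and 9.99 in treated arrays at 24 h, against 9.38, 9.53 and 9.16 in DMSO arrays, and the groups did not overlap. It rose by 0.27, 0.66 and 0.60 at 6, 24 and 72 h. The 6 h call (adjusted p = 0.0280) was lost without any 1 of 4 arrays (adjusted p 0.0532 to 0.162). The other kept probe set of Eif2b5 was called lower at 72 h (-0.56). Eif2b1 and Eif2b2, the alpha and beta subunits, rose by 0.73 and 0.37 at 24 h and by 0.60 and 0.40 at 72 h.

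Of the 4 kinases that phosphorylate eIF2 alpha, 0 rose and 3 fell at 6 h, 1 rose and 2 fell at 24 h, and 2 rose and 0 fell at 72 h, with medians of -0.457, -0.337 and 0.228 on the deposited scale and -1.05, -1.4 and -0.426 on the poly-A scale. Eif2ak4 encodes GCN2, the sensor of uncharged tRNA. Its log2 values were 9.41, 9.55 and 9.60 in treated arrays at 24 h, against 11.06, 10.97 and 11.13 in DMSO arrays. Treated cells had a 2.90-fold lower level, with all treated arrays below all DMSO arrays (log2 change -1.54, SE 0.062, adjusted p = 2.33e-11). Its 6 h values were 8.34, 8.40 and 8.41 in treated arrays, against 9.28, 9.44 and 9.35 in DMSO arrays, also without overlap (log2 change -0.97, SE 0.062, adjusted p = 7.2e-09). By 72 h the values were 9.72, 9.66 and 9.67 in treated arrays, against 9.72, 9.73 and 9.70 in DMSO arrays, and the difference did not pass the test (log2 change -0.03, SE 0.062, adjusted p = 0.670).

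Eif2ak3 encodes PERK, the sensor of unfolded protein in the endoplasmic reticulum. It had 8.79, 8.87 and 9.00 in treated arrays at 24 h, against 9.66, 9.79 and 9.68 in DMSO arrays, and the treated arrays were 1.77-fold lower (log2 change -0.82, SE 0.088, adjusted p = 6.89e-07). At 72 h it had 10.30, 10.18 and 10.19 in treated arrays, against 9.67, 9.69 and 9.85 in DMSO arrays, and the treated arrays were the higher (log2 change 0.49, SE 0.088, adjusted p = 0.000180). At 6 h the values were 8.62, 8.84 and 8.70 in treated arrays, against 9.10, 8.80 and 8.90 in DMSO arrays, a call at the threshold (log2 change -0.21, SE 0.088, adjusted p = 0.0484) that was lost without any 1 of 12 arrays (adjusted p 0.0505 to 0.235).

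Eif2ak2 encodes PKR, the kinase switched on by double-stranded RNA. Its values were 8.78, 9.05 and 9.04 in treated arrays at 6 h, against 9.69, 9.66 and 9.63 in DMSO arrays, lower in treated cells (log2 change -0.70, SE 0.13, adjusted p = 0.000208). At 24 h it had 9.68, 9.85 and 10.19 in treated arrays, against 9.70, 9.82 and 9.76 in DMSO arrays and did not pass the test (log2 change 0.15, SE 0.13, adjusted p = 0.305). At 72 h it had 10.72, 10.37 and 10.35 in treated arrays, against 9.61, 9.60 and 9.84 in DMSO arrays, a 1.74-fold higher level (log2 change 0.80, SE 0.13, adjusted p = 5.84e-05). Eif2ak1 encodes HRI, the heme-regulated kinase that also relays mitochondrial stress, and had 11.27, 11.34 and 11.30 in treated arrays at 24 h, against 11.03, 10.98 and 10.98 in DMSO arrays (log2 change 0.30, SE 0.064, adjusted p = 0.000639). It did not pass the test at 6 h (log2 change -0.08, SE 0.064, adjusted p = 0.332) or 72 h (log2 change -0.08, SE 0.064, adjusted p = 0.286).

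**Figure D3:**
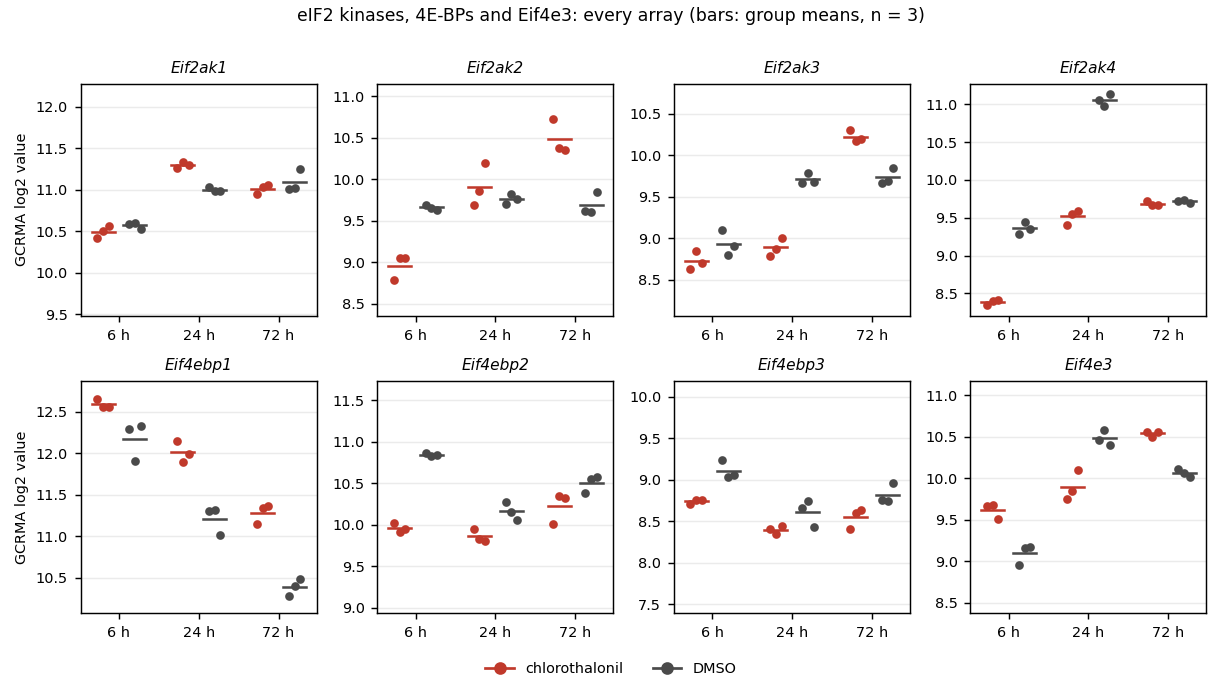
Log2 value (y axis) of each array at 6, 24 and 72 h for the 4 eIF2 kinases, the 3 4E-BPs and Eif4e3, with chlorothalonil in red on the left and DMSO in grey on the right; bars are means of 3 arrays. Eif2ak4 is lower in treated arrays at 6 and 24 h and level at 72 h, and Eif4ebp1 is higher while Eif4ebp2 is lower, most at 6 h.

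The eIF3 group, the multi-subunit scaffold that joins the small ribosomal subunit to the other factors, had 7, 8 and 8 of 11 genes higher at 6, 24 and 72 h and 0, 1 and 0 lower, with medians of 0.287, 0.588 and 0.283 on the deposited scale and -0.31, -0.473 and -0.37 on the poly-A scale. Eif3b, a core subunit, stood out. It had 11.98, 11.87 and 11.70 in treated arrays at 24 h, against 10.14, 10.35 and 9.94 in DMSO arrays. Treated arrays were 3.26-fold higher and did not overlap with DMSO arrays (log2 change 1.71, SE 0.096, adjusted p = 6.97e-10). Values at 6 h were 12.21, 12.25 and 12.09 in treated arrays, against 11.81, 11.69 and 11.82 in DMSO arrays, and at 72 h 10.83, 10.96 and 10.95 in treated arrays, against 10.43, 10.48 and 10.34 in DMSO arrays, smaller differences that passed the test (log2 change 0.41, SE 0.096, adjusted p = 0.00183 at 6 h; log2 change 0.50, SE 0.096, adjusted p = 0.000354 at 72 h). Eif3j, a loosely held subunit that sits near the decoding site, rose by 1.03 at 24 h (adjusted p = 1.46e-09).

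Eif3a, the largest core subunit, had 12.81, 12.81 and 12.71 in treated arrays at 24 h, against 12.94, 12.83 and 12.83 in DMSO arrays, each treated array below each DMSO array, and passed the test at no time (log2 changes 0.08, -0.09 and 0.05). Eif3m had 14.26, 14.33 and 14.40 in treated arrays at 24 h, against 14.56, 14.52 and 14.52 in DMSO arrays and was the 1 gene of the group to fall (log2 change -0.20, SE 0.055, adjusted p = 0.00466). Eif3d, which can itself bind the cap, rose by 0.86 at 24 h, the core subunit Eif3c by 0.71, Eif3i by 0.65, Eif3k by 0.59, Eif3l by 0.44 and Eif3h by 0.21. Eif3f rose at 6 h (0.18, adjusted p = 0.0123, lost without chlorothalonil 6 h replicate 1, adjusted p = 0.0723) and 72 h (0.24, adjusted p = 0.00191) but not at 24 h (0.02, adjusted p = 0.744). Subunits of 1 complex thus ran between -0.20 and 1.71 at 24 h.

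The helicase eIF4A and its partners had 3, 4 and 4 of 5 genes higher and 0 lower at 6, 24 and 72 h, with medians of 0.246, 0.558 and 0.365 on the deposited scale and -0.351, -0.502 and -0.289 on the poly-A scale. Eif4a1, the main helicase that unwinds mRNA leaders, had 14.07, 14.14 and 13.94 in treated arrays at 24 h, against 13.38, 13.37 and 13.31 in DMSO arrays, higher in all treated arrays. It rose at 24 h (log2 change 0.69, SE 0.079, adjusted p = 1.41e-06) and did not pass the test at 6 or 72 h. Eif4a3, a relative that serves the exon junction complex, rose by 0.90 at 24 h (adjusted p = 1.46e-08). Eif4a2 was called higher at all 3 times (0.38, 0.56 and 0.15). Its 72 h call (adjusted p = 0.0203) was lost without either of 2 arrays. The adjusted p was 0.0809 without chlorothalonil 72 h replicate 1 and 0.0503 without DMSO 72 h replicate 3. The other kept probe set of Eif4a2 was called lower at 6 h (-0.63) and at 72 h (-0.31). The mean of the probe sets changed by -0.13 and -0.0811 at those times. Eif4h, a cofactor of the helicase, rose by 0.50 at 24 h and 0.42 at 72 h.

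Eif4b, the other helicase cofactor, passed the test chiefly at 72 h. It had 12.58, 12.60 and 12.44 in treated arrays at 72 h, against 11.13, 11.14 and 10.85 in DMSO arrays. All treated arrays lay above all DMSO arrays, a 2.82-fold higher level (log2 change 1.50, SE 0.099, adjusted p = 7.04e-09). At 24 h it had 11.44, 11.65 and 11.51 in treated arrays, against 11.75, 11.54 and 11.49 in DMSO arrays and did not pass the test (log2 change -0.06, SE 0.099, adjusted p = 0.605). The 6 h call (log2 change 0.25, SE 0.099, adjusted p = 0.0434) was lost without any 1 of 5 arrays (adjusted p 0.0513 to 0.159). Its other kept probe set went the other way at 72 h, as described with the probe sets.

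Among the cap-binding genes, 3 of 4 rose at each time, and 0, 1 and 0 fell at 6, 24 and 72 h, with medians of 0.297, 0.512 and 0.46 on the deposited scale and -0.3, -0.548 and -0.193 on the poly-A scale. Eif4e, which encodes the cap-binding factor itself, had 12.35, 12.39 and 12.31 in treated arrays at 24 h, against 11.36, 11.28 and 11.23 in DMSO arrays. Treated arrays were 2.09-fold higher, without overlap (log2 change 1.06, SE 0.067, adjusted p = 2.15e-09). At 6 h it had 12.46, 12.52 and 12.55 in treated arrays, against 12.26, 12.22 and 12.30 in DMSO arrays, and at 72 h 11.82, 12.08 and 12.02 in treated arrays, against 11.46, 11.37 and 11.45 in DMSO arrays (log2 change 0.25, SE 0.067, adjusted p = 0.00481 at 6 h; log2 change 0.55, SE 0.067, adjusted p = 4.25e-06 at 72 h). Eif4e2, a cap-binding relative that represses translation, was called higher at all 3 times, by 0.35, 0.61 and 0.44.

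Eif4e3, another member of the cap-binding family, turned direction between times. At 24 h it had 9.75, 9.84 and 10.10 in treated arrays, against 10.47, 10.59 and 10.40 in DMSO arrays, lower in treated cells (log2 change -0.59, SE 0.088, adjusted p = 2.43e-05). Its 6 h values were 9.67, 9.68 and 9.52 in treated arrays, against 8.96, 9.16 and 9.18 in DMSO arrays, and at 72 h 10.57, 10.50 and 10.56 in treated arrays, against 10.12, 10.07 and 10.02 in DMSO arrays. Treated cells were higher at both of those times (log2 change 0.53, SE 0.088, adjusted p = 0.000108 at 6 h; log2 change 0.48, SE 0.088, adjusted p = 0.000229 at 72 h). Eif4enif1, the eIF4E transporter that takes the factor into the nucleus and to processing bodies, passed the test at 24 h, where it rose (log2 change 0.42, SE 0.091, adjusted p = 0.000742).

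The 3 repressors of eIF4E split, with 1 rising and 2 falling at each time; their medians were -0.366, -0.212 and -0.271 on the deposited scale and -0.963, -1.27 and -0.925 on the poly-A scale. Eif4ebp1 encodes the 4E-BP that is also a stress-induced gene. It had 12.14, 11.89 and 11.99 in treated arrays at 24 h, against 11.30, 11.32 and 11.01 in DMSO arrays, and at 72 h 11.14, 11.34 and 11.37 in treated arrays, against 10.28, 10.40 and 10.48 in DMSO arrays. Treated cells were 1.74-fold higher at 24 h (log2 change 0.80, SE 0.11, adjusted p = 1.55e-05) and 1.86-fold higher at 72 h (log2 change 0.89, SE 0.11, adjusted p = 6.91e-06). At 6 h the values were 12.66, 12.56 and 12.55 in treated arrays, against 12.29, 11.91 and 12.33 in DMSO arrays (log2 change 0.41, SE 0.11, adjusted p = 0.00574).

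Eif4ebp2, a repressor of the same kind, had 10.02, 9.92 and 9.95 in treated arrays at 6 h, against 10.86, 10.83 and 10.85 in DMSO arrays. Treated cells were 1.84-fold lower, without overlap (log2 change -0.88, SE 0.087, adjusted p = 5.95e-07). The later differences were smaller, with 9.95, 9.82 and 9.80 in treated arrays, against 10.27, 10.15 and 10.06 in DMSO arrays at 24 h (log2 change -0.30, SE 0.087, adjusted p = 0.00609) and 10.01, 10.34 and 10.32 in treated arrays, against 10.38, 10.55 and 10.58 in DMSO arrays at 72 h (log2 change -0.28, SE 0.087, adjusted p = 0.0100). The 72 h call was lost without chlorothalonil 72 h replicate 1 (adjusted p = 0.0586). Eif4ebp3, the third repressor, had 8.71, 8.76 and 8.76 in treated arrays at 6 h, against 9.24, 9.03 and 9.06 in DMSO arrays (log2 change -0.37, SE 0.090, adjusted p = 0.00257). Its calls at 24 h (log2 change -0.21, SE 0.090, adjusted p = 0.0465) and 72 h (log2 change -0.27, SE 0.090, adjusted p = 0.0158) lay near the threshold. The 24 h call was lost without any 1 of 12 arrays (adjusted p 0.0515 to 0.196), and the 72 h call without chlorothalonil 72 h replicate 1 or DMSO 72 h replicate 3 (adjusted p = 0.0806 and 0.0825).

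The eIF4G scaffolds, which tie the cap-binding factor to the helicase and to eIF3, had 0, 1 and 0 of 3 genes higher and 3, 1 and 1 lower, with medians of -0.249, 0.109 and -0.0075 on the deposited scale and -0.846, -0.951 and -0.661 on the poly-A scale. Eif4g3 had 10.89, 10.93 and 11.00 in treated arrays at 72 h, against 11.39, 11.45 and 11.62 in DMSO arrays, lower in treated cells (log2 change -0.55, SE 0.082, adjusted p = 3.24e-05). It was also lower at 6 h (log2 change -0.43, SE 0.082, adjusted p = 0.000351) and 24 h (log2 change -0.33, SE 0.082, adjusted p = 0.00202). Eif4g1, the main scaffold, had 11.17, 11.34 and 11.19 in treated arrays at 6 h, against 11.39, 11.60 and 11.45 in DMSO arrays, a lower level (log2 change -0.25, SE 0.083, adjusted p = 0.0174) whose call was lost without any 1 of 3 arrays, chlorothalonil 6 h replicates 1 and 3 and DMSO 6 h replicate 2 (adjusted p 0.0565 to 0.0821). At 24 h it had 11.33, 11.44 and 11.30 in treated arrays, against 11.06, 11.11 and 10.97 in DMSO arrays, higher in treated cells (log2 change 0.31, SE 0.083, adjusted p = 0.00364). Eif4g2 encodes DAP5, a relative without the eIF4E site, and had 14.31, 14.35 and 14.33 in treated arrays at 6 h, against 14.51, 14.39 and 14.47 in DMSO arrays. It fell at 6 h (log2 change -0.13, SE 0.048, adjusted p = 0.0307) and did not pass the test later. The 6 h call was lost without any 1 of 5 arrays (adjusted p 0.0529 to 0.125). A dimmer kept probe set of Eif4g2 was called higher at 24 h (0.36) and lower at 72 h (-1.35).

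Of the eIF5 group, 1 gene rose and 1 fell at 6 h, 1 rose at 24 h, and 2 rose and 1 fell at 72 h, with medians of 0.112, 0.122 and 0.378 on the deposited scale and -0.485, -0.938 and -0.275 on the poly-A scale. Eif5a encodes the hypusine-bearing factor that helps the ribosome elongate and terminate. It had 13.97, 13.86 and 13.64 in treated arrays at 24 h, against 12.50, 12.62 and 12.45 in DMSO arrays, a 2.46-fold higher level in treated cells, without overlap (log2 change 1.30, SE 0.087, adjusted p = 4.54e-09). It also rose at 6 h (log2 change 0.35, SE 0.087, adjusted p = 0.00287) and 72 h (log2 change 0.38, SE 0.087, adjusted p = 0.00148). Eif5a2, its paralogue, had 10.80, 10.86 and 10.78 in treated arrays at 72 h, against 9.77, 9.72 and 9.82 in DMSO arrays, a 2.06-fold higher level (log2 change 1.04, SE 0.067, adjusted p = 5.76e-09). At 6 h the order was turned, with 10.26, 10.34 and 10.29 in treated arrays, against 10.86, 10.82 and 10.77 in DMSO arrays (log2 change -0.52, SE 0.067, adjusted p = 9.28e-06). At 24 h it had 10.05, 10.14 and 10.27 in treated arrays, against 9.93, 10.13 and 10.12 in DMSO arrays. The difference did not pass the test (log2 change 0.09, SE 0.067, adjusted p = 0.223). The other kept probe set of Eif5a2 was called lower at 24 h (-1.14). Eif5b, the GTPase that joins the subunits, had 11.59, 11.57 and 11.64 in treated arrays at 72 h, against 12.17, 12.20 and 11.85 in DMSO arrays. The treated arrays were the lower (log2 change -0.47, SE 0.11, adjusted p = 0.00127). This brightest probe set passed the test at neither earlier time. A dimmer kept probe set of Eif5b was called higher at 6 h (0.31), and another at 24 h (0.23).

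Eif6, whose product keeps the large subunit from joining too soon and takes part in its assembly, is the 1 gene of its group. Its values were 12.02, 12.18 and 12.02 in treated arrays at 24 h, against 10.38, 10.49 and 10.28 in DMSO arrays. Treated cells had a 3.22-fold higher level, with every treated array above every DMSO array (log2 change 1.69, SE 0.081, adjusted p = 1.4e-10), and the change on the poly-A scale was 0.629. Values at 6 h were 12.02, 11.92 and 11.77 in treated arrays, against 11.34, 11.45 and 11.37 in DMSO arrays, and at 72 h 11.10, 11.22 and 11.30 in treated arrays, against 10.53, 10.67 and 10.71 in DMSO arrays. It rose at both times on the deposited scale (log2 change 0.52, SE 0.081, adjusted p = 5.82e-05 at 6 h; log2 change 0.57, SE 0.081, adjusted p = 1.98e-05 at 72 h), while the poly-A scale gave -0.0774 and -0.0828.

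**Figure D4:**
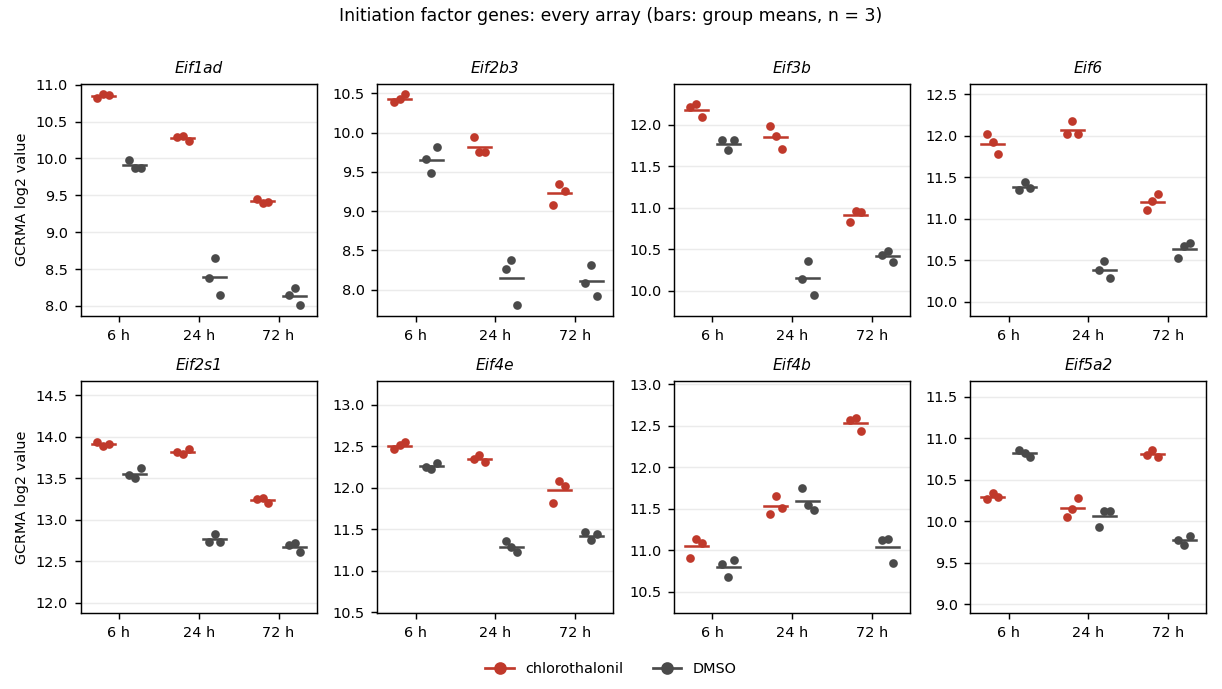
Log2 value (y axis) of each array at 6, 24 and 72 h for 8 factor genes, with chlorothalonil in red on the left and DMSO in grey on the right; bars are means of 3 arrays. Eif1ad, Eif2b3, Eif3b, Eif6, Eif2s1 and Eif4e are higher in treated arrays, most at 24 h, while Eif4b and Eif5a2 are higher at 72 h.

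The effect of treatment differed between times for many members. It was higher at 24 h than at 6 h in 33 of the 49 genes and lower in 4, while 63% of all genes tested were called (39.6% higher and 23.4% lower); with each array centred on its median over the genes tested, the split was 23 higher and 9 lower. It was higher at 72 h than at 24 h in 8 and lower in 22, with 57.6% of all genes called (27.9% higher and 29.8% lower). Between 72 and 6 h it was higher in 17 and lower in 4, with 59% called (37.4% higher and 21.6% lower), and the split was 21 and 2 after quantile normalization and 11 and 6 after centring. Scaled to the poly-A controls the 3 splits were 0 higher and 1 lower, 5 higher and 0 lower, and 2 higher and 0 lower. Without DMSO 24 h replicate 1 they were 7 and 1, 5 and 5, and 5 and 1. All-gene shares after centring, quantile normalization or poly-A scaling are not given.

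Between 6 and 24 h the effect rose most in Eif3b, by 1.30 (SE 0.14, adjusted p = 1.25e-06), in Eif2b4, by 1.27 (SE 0.13, adjusted p = 8.42e-07), and in Eif1b, by 1.27 (SE 0.12, adjusted p = 6.63e-07). The effect on Eif4e3 dropped by 1.11 (SE 0.12, adjusted p = 2.35e-06) over the same interval. Between 24 and 72 h the effect was higher for Eif4b by 1.56 (SE 0.14, adjusted p = 3.09e-07), for Eif2ak4 by 1.51 (SE 0.087, adjusted p = 3.66e-09) and for Eif2ak3 by 1.31 (SE 0.12, adjusted p = 5.09e-07). The effect was lower for 22 genes, among them Eif6 and Eif3b, with differences of -1.12 (SE 0.11, adjusted p = 1.16e-06) and -1.21 (SE 0.14, adjusted p = 2.82e-06).

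The members also changed with time in vehicle culture. In DMSO cells at 24 h against 6 h, 8 members were higher and 33 lower. Of all genes 72.9% were called (32.9% higher and 40% lower). The members' median was -0.587 on the deposited scale and -0.406 on the poly-A scale, where 4 were called higher and 7 lower. Without DMSO 24 h replicate 1 the poly-A median was -0.849, with 3 higher and 31 lower. In DMSO cells at 72 h against 24 h, 12 were higher and 14 lower, with 60.7% of all genes called (36.3% higher and 24.3% lower). The median was -0.037 on the deposited scale, -0.257 on the poly-A scale and 0.194 there without DMSO 24 h replicate 1. With arrays centred the later split was 7 higher and 18 lower, and without DMSO 24 h replicate 3 the higher count was 7. All-gene shares for these alternatives and for the poly-A scale are not given. Eif3b fell by 1.63 between 6 and 24 h in DMSO cells (adjusted p = 8.67e-10), Eif1ad fell by 1.51 and Eif2b3 fell by 1.51. Eif2ak4 rose by 1.70, Eif4e3 by 1.39 and Eif4b by 0.79. Between 24 and 72 h in DMSO cells Eif2ak4 fell by 1.34, Eif2b2 fell by 1.10 and Eif4ebp1 fell by 0.82, while Eif4a3 rose by 0.63, Eif4a2 by 0.49 and Eif4ebp2 by 0.34.

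The comparison of treated with DMSO cells at 24 h and that of DMSO cells at 24 h with 6 h share the DMSO arrays at 24 h, so they are set side by side only. The mean of the treated arrays at 24 h lay nearer to the DMSO mean at 6 h than to that at 24 h in 33 of the 49 genes (67.3%, beside 57% of all genes tested), and between both DMSO means in 19. The median over the 49 genes of the treated 24 h mean minus the DMSO mean was 0.0619 against DMSO at 6 h and 0.497 against DMSO at 24 h. At 72 h the treated mean lay nearer to the DMSO mean at 24 h than to that at 72 h in 26 of the 49 genes (53.1%, beside 51.9% of all genes), with a median difference of 0.299 against DMSO at 24 h and 0.377 against DMSO at 72 h. It lay nearer to the DMSO mean at 6 h than to that at 72 h in 18 genes (36.7%, beside 38.5% of all genes), between those DMSO means in 30, and the median difference from DMSO at 6 h was -0.289. The shares at 72 h were near those of all genes.

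Several probe sets were kept for 16 of the 49 genes, and they did not always agree. In a fit over the 12693 kept probe sets, all those of a gene changed with the same sign in 9 of the 16 genes at 6 h, 13 at 24 h and 12 at 72 h. Probe sets of 1 gene were called in opposite directions in 1, 0 and 3 genes. At 72 h the pairs were Eif4b, with log2 changes of 1.50 and -0.27, Eif2b5, with 0.60 and -0.56, and Eif4a2, with 0.15 and -0.31; at 6 h it was Eif4a2, with 0.38 and -0.63. The late rise of Eif4b therefore rests on its brightest probe set. A dimmer probe set of Eif4e, with a mean log2 value of 6.05, changed by 2.13, 3.73 and 1.45 at 6, 24 and 72 h, in the same direction as the brightest and further. The other probe set of Eif5a2 changed by 0.15, -1.14 and 0.11, where the brightest gave -0.52, 0.09 and 1.04. One further probe set of Eif5b changed by -2.21 at 72 h and one of Eif4g2 by -1.35, and the probe sets of Eif4e3 and of Eif1a had the same signs at all times.

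**Figure D5:**
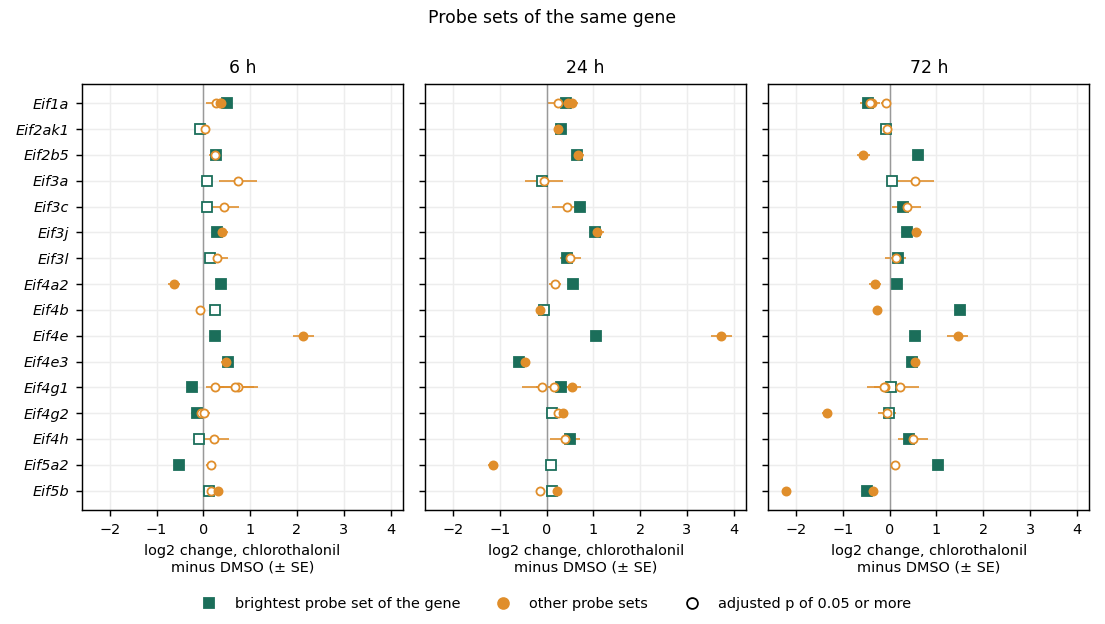
Log2 change with its standard error (x axis, chlorothalonil minus DMSO) of each kept probe set for the 16 genes with several, at 6, 24 and 72 h; squares are the brightest probe set, circles the others, and open symbols had an adjusted p of 0.05 or more. At 72 h the probe sets of Eif4b, Eif2b5 and Eif4a2 lie on opposite sides of 0, and the dimmer Eif4e probe set reaches 3.73 at 24 h.

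Genes that act beside the initiation factors were read from lists of pathway members. Among all genes tested, 27.8%, 39.1% and 37.2% were called higher at 6, 24 and 72 h, and 31.8%, 31.1% and 27% lower. In the eIF2 alpha phosphatase and stress arm, 10, 13 and 10 of 20 genes rose and 5, 4 and 7 fell at 6, 24 and 72 h, with medians of 0.207, 0.607 and 0.311 (-0.39, -0.453 and -0.343 on the poly-A scale). Shares of this list called higher were 50%, 65% and 50%, and shares called lower were 25%, 20% and 35%. Atf3, a stress transcription factor, rose by 6.23, 5.38 and 6.47, and its DMSO mean at 72 h was 3.03, below the filter. Ppp1r15a, the inducible subunit that brings a phosphatase back to eIF2 alpha, rose by 3.51, 4.68 and 3.27, while its constitutive relative Ppp1r15b changed by -0.64, -0.21 and -0.34. The pseudokinase Trib3 rose by 4.11 at 72 h. Among the lowest were Gcn1, the partner of GCN2, which fell by 0.52 at 6 h, and Prkra, an activator of PKR, which fell by 0.72 at 24 h together with the phosphatase subunit Ppp1cb (-0.28). At 72 h the stress regulator Nupr1 changed by -1.42 and the transcription factor Cebpb by -0.60. Of genes chosen after their values were seen, Atf4, whose mRNA is favoured under eIF2 phosphorylation, rose by 0.58, 0.79 and 0.93, and its target Ddit3 by 1.99, 1.98 and 1.50.

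Of 24 genes of mTOR and MNK signalling to eIF4, 6, 7 and 8 rose and 14, 9 and 8 fell, with medians of -0.442, -0.063 and -0.166 (-1.04, -1.12 and -0.82 on the poly-A scale). The higher shares were 25%, 29.2% and 33.3%, beside 27.8%, 39.1% and 37.2% of all genes. The lower shares were 58.3%, 37.5% and 33.3%, beside 31.8%, 31.1% and 27%. Inhibitors of mTOR lay at both ends. Sesn2 rose by 2.56, 1.21 and 1.18 and Ddit4 by 2.14 at 6 h, whereas Sesn1 fell by 2.78 and the arginine sensor Castor2 by 2.56 at 6 h, its treated mean of 3.15 lying below the filter. Deptor fell by 1.29 at 24 h and 0.78 at 72 h, and the ribosomal S6 kinase gene Rps6ka3 was 2.01-fold lower at 24 h. Akt1s1, another inhibitor, rose by 0.71 at 24 h. At 72 h the kinase gene Akt1 fell by 0.83 and Rragd, a GTPase that brings mTOR to the lysosome, rose by 1.52.

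Among 19 initiation cofactors and recycling factors, 5, 10 and 9 rose and 5, 4 and 8 fell, with medians of -0.0296, 0.237 and -0.0562 (-0.626, -0.823 and -0.71 on the poly-A scale). The higher shares were 26.3%, 52.6% and 47.4%, beside 27.8%, 39.1% and 37.2% of all genes. The lower shares were 26.3%, 21.1% and 42.1%, beside 31.8%, 31.1% and 27%. Pdcd4, an inhibitor of the eIF4A helicase, fell by 0.98 at 6 h and 1.12 at 24 h. The helicase gene Dhx29 fell by 0.46 at 6 h, Dap by 1.02 at 24 h and the helicase gene Dhx9 by 0.66 at 72 h. Tma16, which acts on the large subunit, rose by 0.76 and 2.68 at 6 and 24 h. Bzw2, a mimic of eIF5, rose by 0.76 and 1.39 at the same times and fell by 1.16 at 72 h, when Angel1 and the poly(A)-binding protein partner Paip2b rose by 1.34 and 1.21.

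Of 20 elongation and termination factors, 13, 15 and 13 rose and 0, 1 and 1 fell, with medians of 0.252, 0.586 and 0.34 (-0.344, -0.474 and -0.313 on the poly-A scale). The higher shares were 65%, 75% and 65%, beside 27.8%, 39.1% and 37.2% of all genes. The lower shares were 0%, 5% and 5%, beside 31.8%, 31.1% and 27%. Dohh, which completes the hypusine of eIF5A, rose by 1.65 at 24 h. Of the genes that build diphthamide on elongation factor eEF2, Dph5 rose by 0.76, 1.67 and 1.25, Dph7 by 0.79 at 6 h and Dph2 by 0.92 at 72 h, while Dph6 fell by 0.84 at 72 h. Eef2k, the kinase that inhibits eEF2, fell by 0.62 at 24 h. The 19 cytosolic tRNA synthetases had 8, 18 and 17 genes higher (42.1%, 94.7% and 89.5%) and 1, 1 and 0 lower (5.26%, 5.26% and 0%). Their medians were 0.202, 0.955 and 0.679 (-0.395, -0.105 and 0.025 on the poly-A scale). The highest were Farsb (0.80) and Hars1 (0.58) at 6 h, Tars1 (1.45) and Yars1 (1.29) at 24 h, and Nars1 and Gars1 (1.26 each) at 72 h, and the calls below 0 were Aars1 at 6 h (-0.19) and Qars1 at 24 h (-0.15).

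Among ribosomal protein genes, 1, 21 and 6 of 40 rose at 6, 24 and 72 h, and 0, 0 and 1 fell, with medians of 0.056, 0.133 and 0.056 (-0.541, -0.927 and -0.597 on the poly-A scale). The higher shares were 2.5%, 52.5% and 15%, beside 27.8%, 39.1% and 37.2% of all genes. The lower shares were 0%, 0% and 2.5%, beside 31.8%, 31.1% and 27%. The 24 h count of higher genes was 6 after quantile normalization and 6 with arrays centred, and centring gave 30 higher at 6 h. Rpl28 rose by 1.24 at 6 h and 1.58 at 24 h, Rpl18 by 0.30 at 24 h and 0.29 at 72 h, and Rpl4 by 0.24 at 72 h, when Rps9 fell by 0.21. Of 10 genes of the Myc network, 2, 4 and 2 rose and 3, 6 and 3 fell. That is 20%, 40% and 20% higher and 30%, 60% and 30% lower, beside the all-gene shares just given. The medians were -0.0752, -0.337 and -0.038 (-0.672, -1.4 and -0.692 on the poly-A scale). Myc, whose family site is the E-box, rose by 1.17, 1.48 and 0.47 at 6, 24 and 72 h. Binding of Myc to the printed promoters was not tested. Its relative Mycn fell by 0.62 and its partner Max by 0.42 at 72 h. The antagonist Mxd1 rose by 0.71 at 6 h and 0.51 at 72 h, while Mxd3 fell by 1.23 and 1.01 at 6 and 24 h and Mxd4 by 1.24 at 24 h. Of the parallel branch that senses glucose, Mlxip fell by 1.20 at 6 h and Mlx rose by 0.78 at 24 h.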

How the data were processed

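Total RNA of 18 NRK-52E samples was hybridised to a rat Affymetrix array of 31099 probe sets. The deposited values are log2 expression values. The submitters' processing notes name GCRMA as the authors' tool; its version is not given in the sources used here, and a value gives no read depth, so the number of arrays limits precision. Names came from the platform annotation: 20832 probe sets had 1 symbol, 436 several and 9831 none. Single-symbol probe sets above log2 4 in 3 or more arrays (12693) were reduced to the brightest per gene. limma 3.58.1 in R 4.3.3 (lmFit, contrasts.fit, eBayes) fitted the 6 group means over 18 arrays with 12 residual degrees of freedom; tests were two-sided, Benjamini-Hochberg adjusted over 9149 genes, at 0.05. The fit was tested on simulated data. Members and gene lists were chosen with earlier results of these data known. Members given in full were the 4 highest and 4 lowest called per time without overlap, all kinases and 4E-BPs, the smallest F p of each subgroup, the 4 largest F p-values and textbook core factors; a few others that turned direction were added after their values were seen. Other lists name the 2 highest and 2 lowest called genes per time. Same-numbered replicates were not treated as pairs. Of their 9 correlations 3 exceeded 0.1 (0.125 and 0.215 at 24 h, 0.305 at 72 h), while a different-number pair reached 0.213 at 72 h. This check does not settle whether they were paired. Alternatives were other scalings, filters, probe set choices, priors and weights, a replicate block, and leaving out each array. The poly-A scale subtracts each array's mean of the poly-A control probe sets.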

Additional observations from a re-analysis of the deposited data

Results flagged for a closer look

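The effect of chlorothalonil differed between times by limma's test of the difference itself. It was higher at 24 h than at 6 h in 33 members and lower in 4. It was higher at 72 h than at 24 h in 8 members and lower in 22, and higher at 72 h than at 6 h in 17 and lower in 4. Some members changed in opposite directions at the times compared, on the deposited scale. Between 24 and 6 h these were Eif1ax, with a difference of 0.53 (adjusted p = 0.000197), Eif1b, with 1.27 (adjusted p = 6.63e-07), Eif4g1, with 0.559 (adjusted p = 0.000721), and Eif4e3, with -1.11 (adjusted p = 2.35e-06). Between 72 and 24 h these were Eif1a, with -0.891 (adjusted p = 1.31e-05), Eif2ak3, with 1.31 (adjusted p = 5.09e-07), and Eif4e3, with 1.06 (adjusted p = 4.19e-06). Between 72 and 6 h these were Eif1a, with -0.984 (adjusted p = 4.83e-06), Eif1b, with 0.632 (adjusted p = 0.000473), Eif2ak2, with 1.5 (adjusted p = 4.95e-06), Eif2ak3, with 0.701 (adjusted p = 0.000193), and Eif5a2, with 1.56 (adjusted p = 8.03e-09). Some of these opposite directions rest on calls that 1 array or the choice of probe set changed. The Eif2ak3 call at 6 h was lost without any 1 of 12 arrays (adjusted p = 0.0505 to 0.235), the Eif4g1 call at 6 h without any 1 of 3 (0.0565 to 0.0821), and the Eif1b call at 72 h without either of 2 (0.0751 and 0.0752). With the second brightest probe set the sign turned for Eif4g1 at 6 and 24 h (0.73 and -0.0962) and for Eif5a2 at 6 h (0.15). The groups held 3 arrays each, and no array was set aside as an outlier, though each was left out in turn. DMSO 6 h replicate 2 had the lowest fitted array weight (0.341). Its hybridisation control probe sets had a mean of 10.75, against 12.05 and 12 in the other arrays of its group. Without it the 6 h calls of Eif2b5, Eif4b and Eif4g1 were lost, and Eif2a was called higher.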

How the results depend on the processing

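The alternatives kept most results. Counts of members called stayed within 1.5 times the reported ones under array weights, an intensity trend with a robust prior, a filter at log2 6, no filter, the mean of all kept probe sets and the fit on only the 6 arrays of a time. With the replicate block, members called were 23 higher and 10 lower at 6 h, 34 and 6 at 24 h, and 32 and 5 at 72 h, against 24 and 11, 34 and 7, and 33 and 5 without it, so this changed no count by over 1.5 times. Same-number arrays correlated at -0.0438 to 0.305 in their deviations. Centring gave 8 lower at 72 h, 9 with a lower effect at 24 than at 6 h, 11 with a higher effect at 72 than at 6 h, and 7 higher in DMSO at 72 against 24 h. Quantile normalization gave 2 with a lower effect at 72 than at 6 h, and the second brightest probe set gave 8 lower at 72 h. Scaled to the poly-A controls, members called higher were 0, 1 and 1 at 6, 24 and 72 h, and 19 were lower at 24 h. The effect comparisons then gave 0 higher and 1 lower (24 against 6 h), 5 and 0 (72 against 24 h) and 2 and 0 (72 against 6 h), DMSO gave 4 and 7 (24 against 6 h) and 0 and 4 (72 against 24 h), and the test over 3 times called 24. Chosen after seeing the data, the poly-A scale without DMSO 24 h replicate 1 gave 0 higher and 23 lower at 6 h. It gave 5 and 14 at 24 h and 2 and 18 at 72 h. Effects there were 7 and 1, 5 and 5, and 5 and 1. DMSO counts were 3 higher and 31 lower (24 against 6 h) and 3 and 2 (72 against 24 h). Without chlorothalonil 6 h replicate 2 the poly-A scale gave 0 higher and 5 lower at 6 h. It gave 1 and 19 at 24 h and 1 and 5 at 72 h. Effects were then 0 and 1, 5 and 0, and 0 and 0. DMSO counts were 4 and 6 and 0 and 4, with 21 called over 3 times. All-gene shares on the poly-A scale are not given. Leaving out 1 array gave 22 to 24 higher and 8 to 12 lower at 6 h, 33 to 35 and 6 to 7 at 24 h, and 29 to 34 and 3 to 5 at 72 h. The effect counts were then 29 to 33 and 4 to 5 (24 against 6 h), 7 to 8 and 20 to 24 (72 against 24 h) and 14 to 19 and 3 to 4 (72 against 6 h). DMSO counts were 8 to 10 and 33 to 34 (24 against 6 h) and 7 to 14 and 11 to 14 (72 against 24 h), and 46 to 48 over 3 times. Signal over background limits these results little, since every member lay well above the filter on average, while the scale between arrays does: which of the scalings is right was not tested.

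Changes called on at least one side that turned direction numbered 79 on the poly-A scale and 13 with other probe sets; the shift of all genes is part of that scale's construction. At 6 h the poly-A log2 changes were Eif1a -0.0862, Eif2b2 -0.24, Eif2b5 -0.33, Eif2d -0.31, Eif2s1 -0.24, Eif2s2 -0.31, Eif3b -0.19, Eif3d -0.17, Eif3f -0.42, Eif3h -0.29, Eif3i -0.31, Eif3j -0.30, Eif3k -0.24, Eif4a2 -0.22, Eif4a3 -0.29, Eif4b -0.35, Eif4e -0.35, Eif4e2 -0.25, Eif4e3 -0.0716, Eif4ebp1 -0.18, Eif5a -0.25, Eif6 -0.0774. At 24 h they were Eif1a -0.64, Eif1ax -0.81, Eif1b -0.17, Eif2a -0.56, Eif2ak1 -0.76, Eif2ak2 -0.91, Eif2b1 -0.33, Eif2b2 -0.69, Eif2b5 -0.40, Eif2d -0.26, Eif2s1 -0.00282, Eif2s2 -0.0888, Eif2s3 -0.63, Eif2s3y -0.96, Eif3c -0.35, Eif3d -0.20, Eif3f -1.04, Eif3h -0.85, Eif3i -0.41, Eif3j -0.0286, Eif3k -0.47, Eif3l -0.62, Eif4a1 -0.37, Eif4a2 -0.50, Eif4a3 -0.16, Eif4e2 -0.45, Eif4ebp1 -0.26, Eif4enif1 -0.64, Eif4g1 -0.75, Eif4g2 -0.95, Eif4h -0.56, Eif5a2 -0.97, Eif5b -0.94. At 72 h they were Eif1b -0.40, Eif2ak3 -0.17, Eif2b1 -0.0581, Eif2b2 -0.26, Eif2b4 -0.43, Eif2b5 -0.0519, Eif2s1 -0.0896, Eif2s3 -0.50, Eif3b -0.16, Eif3c -0.37, Eif3d -0.0662, Eif3f -0.42, Eif3h -0.34, Eif3i -0.25, Eif3j -0.28, Eif3l -0.48, Eif4a2 -0.50, Eif4a3 -0.29, Eif4e -0.11, Eif4e2 -0.21, Eif4e3 -0.18, Eif4h -0.23, Eif5a -0.28, Eif6 -0.0828. The second brightest probe set gave Eif4a2 -0.63, Eif4b -0.0673, Eif4g1 0.73, Eif5a2 0.15 at 6 h, Eif4g1 -0.0962, Eif5a2 -1.14 at 24 h and Eif2b5 -0.56, Eif4a2 -0.31, Eif4b -0.27 at 72 h. The mean of all kept probe sets gave Eif4a2 -0.13, Eif4g1 0.35 at 6 h, Eif5a2 -0.52 at 24 h and Eif4a2 -0.0811 at 72 h. The cause was not tested.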
